A study of Mus musculus with 27 samples.

Results

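The 43 genes described here encode the proteins that copy the genome in S phase, and they were taken by gene symbol from a list that covers origin licensing, the helicase and its activators, the polymerases, the clamp and its loader, single-strand DNA binding, Okazaki fragment processing, nucleotide supply and chromatin assembly. All 43 were found among the 35275 genes measured by RNA sequencing, and all 43 passed the filter on low reads in each of the main fits. In naive cells, Mcm10 and Fen1 did so only with the lin28Tg libraries counted, the group in which their mean was highest. The samples were 27 libraries of mouse P14 CD8+ T cells, which carry 1 transgenic T cell receptor for a viral peptide, in 9 groups of 3 libraries formed by 3 genotypes and 3 stages. The genotypes were WT, lin28Tg (Lin28bTg in the labels), in which Lin28b blocks the maturation of let-7 microRNAs, and let-7Tg, in which doxycycline drives a let-7g transgene. Per the study's methods, let-7g sits in the Col1a1 locus with the M2rtTA activator, the P14 mice were kept on a Rag2-/- background as young adults of both sexes, and control mice drank doxycycline too. The promoter of the lin28 transgene is not given in the sources used here. The naive cells (time 0) are labelled as lymph node cells that were not treated in culture, their mice having drunk doxycycline as above; the growth protocol names spleens beside lymph nodes as a source. The 12 h cells were stimulated with anti-CD3 at 2 µg/mL and anti-CD28 at 5 µg/mL, with doxycycline at 2 µg/mL. The day 5 cells, called CTLs, were stimulated with anti-CD3 at 2 µg/mL and irradiated splenocytes, received IL-2 at 100 U/mL at 48 h and grew for 3 more days in doxycycline at 2 µg/mL.

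Replication starts at origins bound by the origin recognition complex (Orc1 and Orc6 among its subunits), where Cdc6 and Cdt1 load the hexameric helicase Mcm2 to Mcm7. Mcm10, Cdc45 and the GINS complex then turn the loaded helicase into a moving fork, polymerase alpha with primase lays down primers, polymerases delta and epsilon extend them, and RFC places the sliding clamp Pcna. Ribonucleotide reductase, thymidylate synthase and thymidine kinase supply the nucleotides. Naive T cells rest outside the cell cycle, enter it after stimulation, and divide repeatedly as they become CTLs. Many of these genes are known targets of E2F transcription factors. let-7 microRNAs repress messages that hold a match to their seed, the bases at their 5′ end.

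The let-7 sequences are shown because both transgenes act on them. The 11 mouse loci with this seed that RefSeq lists on GRCm38.p6 give 9 different mature sequences, of which 4 follow with bases 2 to 8, the seed, in capitals. The form expressed from the transgene, let-7g, has its endogenous locus at chr9:106178846-106178867 on the plus strand.
let-7g-5p: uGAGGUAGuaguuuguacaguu
let-7a-5p: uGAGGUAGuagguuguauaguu
let-7b-5p: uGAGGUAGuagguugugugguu
let-7d-5p: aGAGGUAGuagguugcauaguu
The letters that pair with this seed, CTACCTC, were looked for after the stop codon of each gene's longest protein-coding transcript (GENCODE M21, GRCm38). They stood in 2 of the 43 members (4.65%), in 2 of 30 mitosis genes (6.67%) and in 1320 of 12709 tested genes that have such a 3′ UTR (10.4%). These UTRs were shorter in the members, with a median of 526 bases against 1102 over the tested genes, and per kilobase of UTR there were 0.0479 matches in the members and 0.0750 in the tested genes. The members with a match were Rrm2, the small subunit of ribonucleotide reductase, at chr12:24713350-24713379 on the plus strand, and Pold3, a subunit of polymerase delta, at chr7:100083622-100083651 on the minus strand. The match is in capitals.
Rrm2: aaagctgtgtagCTACCTCagtcctgtttg
Pold3: atgCTACCTCtgaaaggactcgggctggtc
In Rrm2 the match begins at base 130 of a 914-base UTR and is followed by A, while in Pold3 it begins at base 4 of 1541. No match says only that these letters are not in that window.

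Promoters are shown because many of these genes are known E2F targets, as stated above. RefSeq entries from 250 bases before to 50 after the gene start (GRCm38.p6) matched 36 of the 43 members. The letters TTTCCCGC, TTTCGCGC, TTTGCCGC or TTTGGCGC, the E2F type of site, were present on either strand in 14 of the 36 (38.9%), against 2.605% of the 27025 genes with an entry (2.26% of 32851 single entries), 26.3% of 38 further replication genes, 35.3% of 17 regulators of the step from G1 to S and 12.0% of 25 mitosis genes. The letters TTTGAA, part of the CHR element of mitosis promoters, were in 13.9% of the members, 76.0% of the mitosis genes, 23.7% of the further replication genes and 20.2% of all genes with an entry. CCAAT was in 61.1% of the members, 80.0% of the mitosis genes, 44.7% of the further replication genes and 41.1% of all genes with an entry. The E2F type words can share only an end base with CCAAT and none with TTTGAA, but they can overlap each other, as in Mcm5. The 250 bases before the start of Mcm5, at chr8:75109259-75109508 on the plus strand, follow with the overlapping matches in capitals.
Mcm5: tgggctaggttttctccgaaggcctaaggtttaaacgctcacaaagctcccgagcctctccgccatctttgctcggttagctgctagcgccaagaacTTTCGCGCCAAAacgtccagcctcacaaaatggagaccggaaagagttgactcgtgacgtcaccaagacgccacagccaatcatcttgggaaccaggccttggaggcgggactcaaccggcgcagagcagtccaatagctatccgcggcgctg
Shorter windows show the matches in Orc1 (chr4:108579416-108579445, plus strand), Cdc6 (chr11:98908002-98908031, plus strand), Mcm6 (chr1:128359797-128359826, minus strand), Gins3 (chr8:95633507-95633536, plus strand) and Pola1 (chrX:93632275-93632304, minus strand).
Orc1: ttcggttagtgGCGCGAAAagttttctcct
Cdc6: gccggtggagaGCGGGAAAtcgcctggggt
Mcm6: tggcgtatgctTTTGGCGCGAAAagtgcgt
Gins3: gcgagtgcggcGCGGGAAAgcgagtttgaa
Pola1: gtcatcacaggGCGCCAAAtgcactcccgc
These matches describe the letters of the windows and are not measured binding sites.

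The libraries held 13862706 to 23591069 reads assigned to genes. Lin28b was at 56.4 to 67.9 FPKM (fragments per kilobase, scaled to library depth) in naive lin28Tg cells, 9.94 to 12.6 at 12 h and 14.0 to 22.4 at day 5, and at or under 0.0590 in every other library. Col1a1, the locus of the let-7g transgene, was at 9.06 to 62.8 FPKM in the let-7Tg libraries and at or under 4.93 elsewhere. The 10 markers of CD8 T cells were detected in every group, with Cd8a between 99.8 and 544 FPKM. Each stage was made by its own preparation or culture, so stage and culture condition cannot be told apart.

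In WT cells the replication genes were low in naive cells, high at 12 h and in most cases higher still at day 5. Their summed level was 998, 1012 and 975 FPKM in the 3 naive WT libraries, 2719, 2142 and 2966 at 12 h, and 4005, 3997 and 3827 at day 5. Naive lin28Tg cells were already at 1656, 1745 and 1885 FPKM, and let-7Tg cells at 913, 945 and 897. The lin28Tg sum was 3262, 3973 and 3808 FPKM at 12 h and 3854, 3764 and 3618 at day 5, and the let-7Tg sum was 2035, 1732 and 2601 and then 3966, 4070 and 4191. The sums of the 3 genotypes thus did not overlap in naive cells. At 12 h the lin28Tg sums lay above the others, while those of WT and let-7Tg overlapped. By day 5 all sums lay between 3618 and 4191 FPKM, with every lin28Tg sum below every let-7Tg sum. By group means of FPKM, without scaling between libraries, 40 of 43 members in WT and 41 in let-7Tg were highest at day 5. In lin28Tg 22 were, and the other 21 were highest at 12 h. In the scaled fit used below, the change from 12 h to day 5 was positive in 36 members in WT, 41 in let-7Tg and 20 in lin28Tg. In bulk RNA, fewer cells in cycle and less message per cycling cell cannot be told apart.

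**Figure D1:**
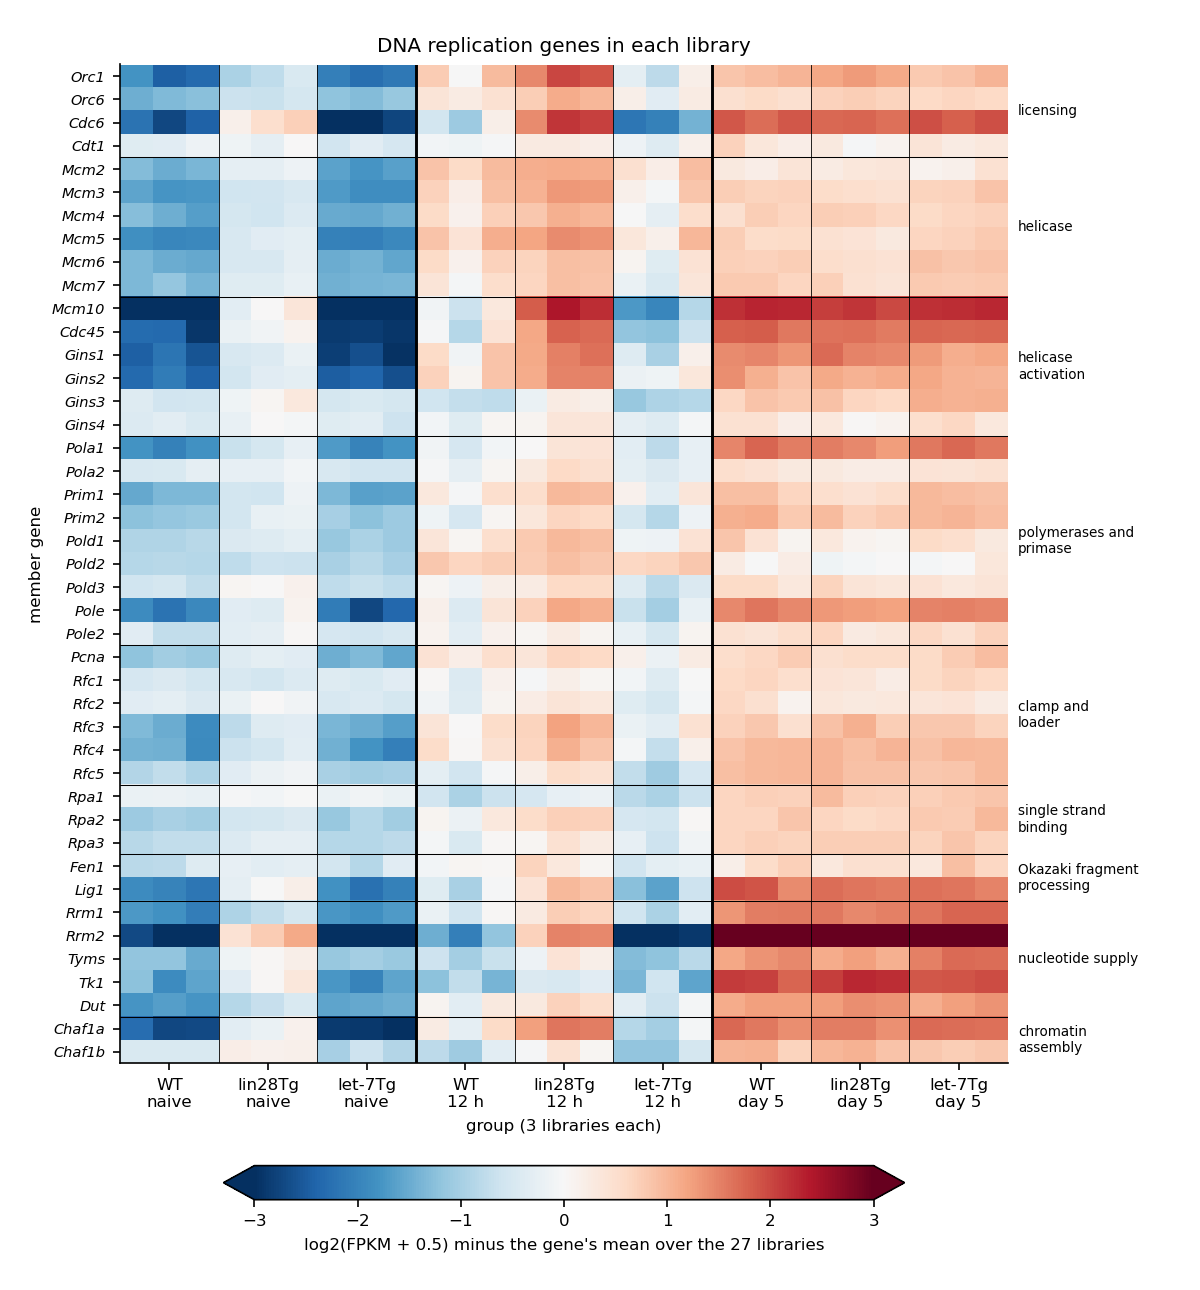
Heat map of the 43 members (rows, by role) in the 27 libraries (columns, by stage and genotype), with colour as log2(FPKM + 0.5) minus the gene's mean over all libraries. Naive WT and let-7Tg libraries are the lowest in most rows, naive lin28Tg libraries stand above them in 41 of 43 members against WT, and the day 5 libraries of the 3 genotypes look alike.

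In naive cells, 34 of 43 members were higher in lin28Tg than in WT and 0 were lower (limma, Benjamini-Hochberg adjusted p under 0.05), where 19.0% of the 13277 genes tested were higher and 15.8% lower. The median log2 difference of the members was 0.93, against -0.04 over all tested genes. All 3 lin28Tg libraries lay above all 3 WT libraries in 41 members, which holds for 28.2% of tested genes. The members without a call were Cdt1, Gins4, Pola2, Pold2, Pole2, Rfc1, Rfc2, Rpa1 and Fen1. Against let-7Tg, 39 members were higher in lin28Tg and 0 lower, with a median of 1.03 (23.0% of tested genes were higher and 21.2% lower). The 3 genotypes were each compared with one another, so these comparisons share libraries.

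Among the licensing genes, 3 of 4 were higher in naive lin28Tg than in WT cells. Orc1, the largest origin recognition subunit, was at 1.97, 1.07 and 1.21 FPKM in WT, 3.96, 4.55 and 5.7 in lin28Tg and 1.55, 1.29 and 1.45 in let-7Tg cells, so that the lin28Tg libraries stood clear of both others (log2 difference 1.42, SE 0.19, adjusted p = 0.000838). Cdc6, which loads the helicase, was at 0.781, 0.403 and 0.603 FPKM in WT, 6.16, 8.02 and 9.33 in lin28Tg and 0.224, 0.247 and 0.387 in let-7Tg cells (log2 difference 2.88, SE 0.19, adjusted p = 2.39e-05). Its mean level was 13.2-fold higher in lin28Tg than in WT. Cdt1, the partner of Cdc6 in loading, was at 32.7, 33.6 and 37.8 FPKM in WT, 38.9, 35.3 and 42.5 in lin28Tg and 28.2, 33.6 and 29.7 in let-7Tg cells, and its lin28Tg and WT libraries overlapped (log2 difference 0.10, 95% interval -0.12 to 0.32, adjusted p = 0.444).

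All 6 subunits of the Mcm helicase were higher in naive lin28Tg cells, by 0.89 to 1.48 on the log2 scale. Mcm5 was at 17.6, 16.1 and 16.6 FPKM in WT, 46.1, 50.8 and 52.2 in lin28Tg and 15.4, 15.1 and 16.6 in let-7Tg cells (log2 difference 1.48, SE 0.07, adjusted p = 6.65e-06), with the lin28Tg libraries apart from the rest. Mcm2 was at 29.2, 25.5 and 27.9 FPKM in WT, 60.6, 60.6 and 64.8 in lin28Tg and 23.6, 20.9 and 23.2 in let-7Tg cells (log2 difference 1.1, SE 0.07, adjusted p = 1.83e-05). Mcm3 followed at 48.8, 43.1 and 43.6 FPKM in WT, 97.6, 99.7 and 106 in lin28Tg and 45.3, 40.1 and 40.4 in let-7Tg cells (log2 difference 1.1, SE 0.07, adjusted p = 1.83e-05). The helicase genes were well expressed in naive WT cells too, and the ratio of the lin28Tg and WT means was 2.96 for Mcm5.

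The activators of the helicase had a median log2 difference of 1.92, with 5 of 6 higher in lin28Tg. Mcm10, which joins the helicase as it is activated, was at 0.486, 0.310 and 0.543 FPKM in WT, 7.1, 9.08 and 11.6 in lin28Tg and 0.212, 0.351 and 0.0790 in let-7Tg cells (log2 difference 3.31, SE 0.21, adjusted p = 1.96e-05). Its WT and let-7Tg libraries held 2 to 14 reads each, so the fold of 20.7 between the lin28Tg and WT means rests on few WT reads. Mcm10 also passed the filter on low reads in naive cells only with the lin28Tg libraries counted. Cdc45, a subunit of the active helicase, was at 2.7, 2.65 and 1.62 FPKM in WT, 13.3, 14.3 and 16.6 in lin28Tg and 1.68, 1.72 and 1.6 in let-7Tg cells (log2 difference 2.4, SE 0.17, adjusted p = 3e-05). Gins1, of the GINS complex, was at 2.37, 2.96 and 2.12 FPKM in WT, 10.8, 11.5 and 13.3 in lin28Tg and 1.74, 2.02 and 1.51 in let-7Tg cells (log2 difference 2.0, SE 0.15, adjusted p = 3.76e-05). In each of these genes every lin28Tg library exceeded every library of the other 2 genotypes.

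Of the 9 polymerase and primase genes, 6 were higher in naive lin28Tg cells. Pola1, the catalytic subunit of polymerase alpha, was at 3.83, 3.18 and 3.78 FPKM in WT, 8.97, 9.88 and 12.1 in lin28Tg and 4.15, 3.25 and 3.82 in let-7Tg cells (log2 difference 1.34, SE 0.14, adjusted p = 0.000181). Pole, the catalytic subunit of polymerase epsilon, was at 5.68, 4.36 and 5.43 FPKM in WT, 17.6, 16.9 and 24 in lin28Tg and 4.85, 2.93 and 3.93 in let-7Tg cells (log2 difference 1.75, SE 0.18, adjusted p = 0.00021). Prim1, the catalytic primase subunit, was at 10.7, 12.3 and 12.2 FPKM in WT, 21.5, 21 and 28.5 in lin28Tg and 12.2, 9.96 and 10.2 in let-7Tg cells (log2 difference 0.92, SE 0.13, adjusted p = 0.000942). The subunits Pola2, Pold2 and Pole2 were not called, while the accessory subunits Pold3 and Prim2 were called higher. Calls thus differed within 1 polymerase but did not follow a split into catalytic and accessory genes. The difference between called and uncalled subunits was not tested.

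Pcna, the sliding clamp, was at 149, 165 and 159 FPKM in WT, 262, 281 and 272 in lin28Tg and 124, 137 and 116 in let-7Tg cells and was higher in lin28Tg (log2 difference 0.73, SE 0.08, adjusted p = 0.000292). Rfc1, the large subunit of the clamp loader, was at 27, 28.4 and 26.2 FPKM in WT, 27.5, 26.2 and 28.8 in lin28Tg and 29.4, 28 and 30.02 in let-7Tg cells, and its libraries overlapped between genotypes (log2 difference -0.04, 95% interval -0.18 to 0.10). Rpa1, the large subunit of the single-strand binding protein, was at 75.7, 76.3 and 74.2 FPKM in WT, 84.3, 81.1 and 85.9 in lin28Tg and 75.8, 80.7 and 75.1 in let-7Tg cells (log2 difference 0.09, 95% interval -0.04 to 0.22). Both intervals end below 0.25, whereas 4 of 6 clamp and loader genes and 2 of 3 single-strand binding genes were called.

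Lig1, the ligase that joins Okazaki fragments, was at 9.65, 8.78 and 7.77 FPKM in WT, 30.2, 36.6 and 41.5 in lin28Tg and 10.1, 7.42 and 8.68 in let-7Tg cells (log2 difference 1.92, SE 0.13, adjusted p = 3e-05). Fen1, the flap nuclease of the same step, had only 3 to 76 reads in any library, and 84.2% of its exonic bases overlap genes on the opposite strand (Gm10143 and Tmem258). Whether counting used strand is not stated, so its level of 0.113, 0.126 and 0.316 FPKM in WT, 0.402, 0.359 and 0.389 in lin28Tg and 0.230, 0.0952 and 0.354 in let-7Tg cells is uncertain, and it was not called (adjusted p = 0.148). Antisense overlap also covers 67.3% of the exonic bases of Gins2 and 52.5% of those of Chaf1a.

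All 5 nucleotide supply genes and both chromatin assembly genes were higher in naive lin28Tg cells. Rrm2, the regulated subunit of ribonucleotide reductase, was at 4.24, 2.93 and 2.8 FPKM in WT, 41.7, 52.2 and 67.5 in lin28Tg and 2.04, 1.88 and 1.65 in let-7Tg cells (log2 difference 3.77, SE 0.18, adjusted p = 6.65e-06). This was the largest log2 difference among the 43 members, and the ratio of means was 16.2. Tyms, thymidylate synthase, was at 5.59, 5.61 and 4.33 FPKM in WT, 12.2, 13.7 and 15.2 in lin28Tg and 5.79, 6.31 and 5.86 in let-7Tg cells (log2 difference 1.27, SE 0.12, adjusted p = 0.000136). Tk1, thymidine kinase, was at 11.3, 7.1 and 8.84 FPKM in WT, 21.6, 28.2 and 35 in lin28Tg and 7.88, 6.49 and 8.88 in let-7Tg cells (log2 difference 1.52, SE 0.19, adjusted p = 0.000627). Chaf1a, a histone chaperone subunit that acts behind the fork, was at 1.61, 1.05 and 1.09 FPKM in WT, 7.79, 8.47 and 10.8 in lin28Tg and 0.916, 0.882 and 0.523 in let-7Tg cells (log2 difference 2.4, SE 0.19, adjusted p = 4.79e-05). In all 4 genes the lin28Tg libraries were separate from the WT libraries.

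Between let-7Tg and WT naive cells, 0 of 43 members were called by limma, with 16 at an unadjusted p under 0.05 and 0.934% of all tested genes called. Of the 13277 tested genes, 1932 had an unadjusted p under 0.05. The log2 difference was negative in 33 members, with a median of -0.16. All 3 let-7Tg libraries lay below all 3 WT libraries in 10 members, Mcm2, Pcna, Cdc6, Gins1, Rrm2 and Chaf1a among them, and above in 2 (7.28% and 16.7% of tested genes). Mcm2 (adjusted p = 0.0579, 95% interval -0.48 to -0.18), Pcna (adjusted p = 0.0639, 95% interval -0.56 to -0.20) and Rrm2 (adjusted p = 0.103, 95% interval -1.14 to -0.32) had these values. Without let-7Tg naive replicate 2, Pcna and Chaf1b were called.

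Markers of other cells moved with the naive lin28Tg group. The summed level of 8 myeloid genes was 31.6 to 52.1 FPKM in naive WT, 136 to 681 in naive lin28Tg and 22.7 to 52.6 in naive let-7Tg libraries, and 5 of the 5 tested were higher in lin28Tg than in WT. For 8 erythroid genes the sums were 149 to 249, 397 to 1409 and 41.9 to 83.2 FPKM, with 3 of 5 tested genes higher. The defining precursor genes Mpo, Elane and Klf1 were at or under 0.418 FPKM in every naive library, while Lyz2 reached 491 and Hba-a1 537 FPKM in lin28Tg. The 2 NK genes summed to 6.53 to 17.6 FPKM in WT and 17.8 to 60.4 in lin28Tg, with both higher, and the 6 B cell genes to 18.8 to 21.5 and 29.0 to 33.3, with 1 of 2 tested higher. The 3 CD4 genes summed to 9.30 to 17.9 and 12.0 to 58.7 FPKM, but only Cd4 itself was higher (2.32 on the log2 scale), while Cd40lg (-1.73) and Foxp3 (-0.50) were lower. The 4 stroma genes summed to 63.5 to 64.7 FPKM in WT and 40.2 to 45.6 in lin28Tg, with 2 higher and 1 lower, and the 3 thymocyte genes to 8.23 to 14.2 and 5.25 to 6.81, with the 1 tested lower. The 10 CD8 T cell genes summed to 6492 to 7395 in WT and 5228 to 5742 in lin28Tg, with 5 lower and 0 higher. Among the naive lin28Tg libraries, replicate 1 had a myeloid sum of 136, an erythroid sum of 762 and a replication sum of 1656 FPKM. In replicate 2 these were 681, 1409 and 1745 FPKM, and in replicate 3 they were 372, 397 and 1885. Each of the 3 naive lin28Tg libraries had a higher myeloid sum and a higher erythroid sum than every naive WT library. The part of other cells in the naive replication differences was not tested. The number of members called in lin28Tg against WT was 34 or 35 when any 1 of the 6 naive libraries was left out, which does not test that part.

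**Figure D2:**
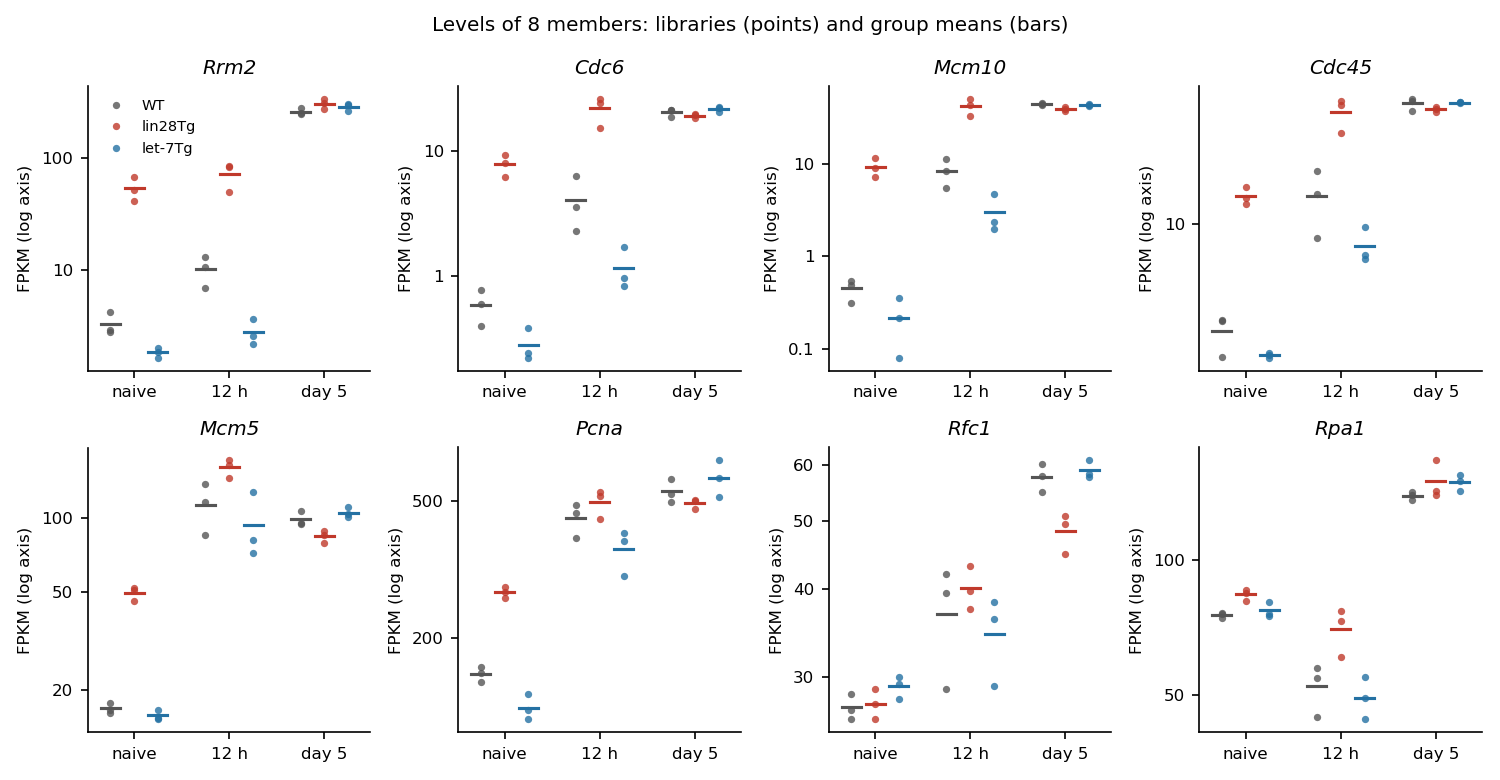
FPKM on a log axis of Rrm2, Cdc6, Mcm10, Cdc45, Mcm5, Pcna, Rfc1 and Rpa1 in each library at the 3 stages, with points for libraries and lines through the means of WT, lin28Tg and let-7Tg. The lin28Tg points of Rrm2, Cdc6, Mcm10 and Cdc45 sit above the others in naive and 12 h cells and join them at day 5, while those of Rfc1 overlap the others at the first 2 stages.

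At 12 h, 10 of 43 members were higher in lin28Tg than in WT and 0 lower (limma, adjusted), where 6.10% of 12239 tested genes were higher and 2.39% lower. They were Orc1, Cdc6, Mcm10, Cdc45, Gins3, Pola2, Lig1, Rrm2, Tyms and Chaf1a. All 43 log2 differences were positive, with a median of 0.56. Of the members, 31 had an unadjusted p under 0.05 (2970 of the 12239 tested genes), and the libraries did not overlap in 38 (19.6% of tested genes). The 3 libraries of each genotype spread widely: WT replicate 2 had the lowest summed level among WT and let-7Tg replicate 2 among let-7Tg libraries. The count was 6 without WT replicate 1, 5 without WT replicate 2, and 3 without either lin28Tg replicate 2 or 3. It was 5 without the filter on low reads, 21 when only the 6 libraries compared were fitted, and 19 with the replicate number as a block, although lin28Tg and other libraries of the same number did not deviate together at 12 h. Between lin28Tg and let-7Tg the count was 39 higher and 0 lower, with a median of 0.91 (16.3% of tested genes were higher and 14.5% lower), and 24 without lin28Tg replicate 2.

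Of the licensing genes, 2 of 4 were called between lin28Tg and WT at 12 h. Orc1 was at 14, 8.03 and 15.9 FPKM in WT, 22.9, 33.6 and 31.4 in lin28Tg and 6.52, 4.48 and 9.09 in let-7Tg cells (log2 difference 1.2, SE 0.31, adjusted p = 0.0433 for lin28Tg against WT). Cdc6 was at 3.6, 2.32 and 6.26 FPKM in WT, 15.4, 26 and 24.2 in lin28Tg and 0.836, 0.973 and 1.72 in let-7Tg cells (log2 difference 2.33, SE 0.34, adjusted p = 0.00358), a 5.37-fold ratio of the lin28Tg and WT means. Cdt1 was at 40.3, 38.7 and 41.3 FPKM in WT, 51.3, 51.3 and 49.1 in lin28Tg and 37.9, 32.2 and 47.4 in let-7Tg cells, with no call in any of the 3 genotype comparisons although the lin28Tg libraries were the highest.

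None of the 6 helicase genes was called between lin28Tg and WT at 12 h, while all 6 were called between lin28Tg and let-7Tg. Mcm2 was at 133, 108 and 139.9 FPKM in WT, 155, 158 and 156 in lin28Tg and 102, 83.7 and 139 in let-7Tg cells (lin28Tg against WT, 95% interval -0.12 to 0.70). Mcm5 was at 117, 85.9 and 138 FPKM in WT, 146, 172 and 165 in lin28Tg and 81.8, 72 and 128 in let-7Tg cells (95% interval -0.02 to 1.04). The WT libraries came within reach of the lin28Tg libraries, and let-7Tg replicate 3 overlapped the WT range in both genes.

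Of the 6 activators, 3 were called between lin28Tg and WT. Mcm10 was at 8.31, 5.49 and 11.3 FPKM in WT, 32.9, 50.1 and 43.4 in lin28Tg and 2.35, 1.94 and 4.72 in let-7Tg cells (log2 difference 2.28, SE 0.33, adjusted p = 0.00358). Cdc45 was at 15.1, 8.34 and 20.6 FPKM in WT, 35, 54.1 and 50.9 in lin28Tg and 6.53, 6.25 and 9.66 in let-7Tg cells (log2 difference 1.68, SE 0.32, adjusted p = 0.012). Gins1 was at 23.1, 14.1 and 27.9 FPKM in WT, 34.2, 44.8 and 48.9 in lin28Tg and 11.6, 7.55 and 17.1 in let-7Tg cells, where the lin28Tg and WT libraries did not overlap but the test did not call them (adjusted p = 0.1).

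For the polymerases, only Pola2 was called between lin28Tg and WT, and 7 of 9 genes between lin28Tg and let-7Tg. Pola1 was at 13.4, 10.1 and 13.7 FPKM in WT, 14.6, 19.3 and 19.6 in lin28Tg and 11.5, 8.2 and 12.2 in let-7Tg cells (log2 difference 0.74, SE 0.20, adjusted p = 0.0208 for lin28Tg against let-7Tg). Pole was at 24.7, 16.6 and 29.4 FPKM in WT, 36, 50.5 and 47.1 in lin28Tg and 13.9, 10.7 and 18.8 in let-7Tg cells (log2 difference 1.62, SE 0.26, adjusted p = 0.00193 for the same pair). Prim1 was at 40.1, 31 and 45.3 FPKM in WT, 46.5, 63.4 and 60.5 in lin28Tg and 34.8, 25.6 and 41.5 in let-7Tg cells (log2 difference 0.76, SE 0.22, adjusted p = 0.0266). The order lin28Tg, WT, let-7Tg held for all 3 group means, with let-7Tg and WT libraries overlapping in each.

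Pcna was at 461, 391 and 488 FPKM in WT, 443, 533 and 519 in lin28Tg and 384, 303 and 404 in let-7Tg cells, with WT and lin28Tg overlapping and a call only for lin28Tg against let-7Tg among the 3 comparisons (adjusted p = 0.0395). Rfc1 was at 39.5, 28.9 and 42 FPKM in WT, 37.5, 43.1 and 39.7 in lin28Tg and 36.2, 29.2 and 38.3 in let-7Tg cells and was called in none of the 3. Rpa1 was at 57.5, 44.9 and 54.8 FPKM in WT, 60.8, 73.1 and 76.9 in lin28Tg and 49.2, 44.2 and 54.8 in let-7Tg cells, with lin28Tg above let-7Tg (log2 difference 0.51, SE 0.14, adjusted p = 0.023).

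Lig1 was at 28.4, 18.4 and 35.7 FPKM in WT, 49.3, 72.2 and 66.5 in lin28Tg and 15.1, 11.7 and 23.8 in let-7Tg cells (log2 difference 1.19, SE 0.31, adjusted p = 0.0435 for lin28Tg against WT). Fen1, again from few reads, was at 0.506, 0.612 and 0.597 FPKM in WT, 1.22, 0.843 and 0.624 in lin28Tg and 0.225, 0.380 and 0.415 in let-7Tg cells. In nucleotide supply, Rrm2 was at 10.8, 6.93 and 13.2 FPKM in WT, 49.4, 85.8 and 83.7 in lin28Tg and 2.22, 2.6 and 3.66 in let-7Tg cells (log2 difference 2.75, SE 0.29, adjusted p = 0.000742), a 7.07-fold ratio of the lin28Tg and WT means. Every Rrm2 value in let-7Tg lay below every WT value, and every WT value below every lin28Tg value. Tyms was at 8.42, 6.27 and 8.18 FPKM in WT, 12, 17.7 and 15.1 in lin28Tg and 5.09, 5.47 and 7.33 in let-7Tg cells (log2 difference 0.90, SE 0.19, adjusted p = 0.0213). Tk1 was at 11.5, 16.2 and 10.2 FPKM in WT, 20.1, 19.4 and 21.5 in lin28Tg and 10.3, 18 and 8.82 in let-7Tg cells and was not called against WT (adjusted p = 0.0917). Chaf1a was at 11.7, 8.08 and 14.9 FPKM in WT, 23.9, 31.1 and 29.6 in lin28Tg and 5.24, 4.64 and 9.38 in let-7Tg cells (log2 difference 1.26, SE 0.29, adjusted p = 0.0257).

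Against WT, let-7Tg cells at 12 h had 1 member lower, Rrm2 (log2 difference -1.71, SE 0.29, adjusted p = 0.0226), and 0 higher (limma), with 1.87% of tested genes lower and 1.36% higher. All 43 log2 differences were negative, with a median of -0.36. Of the members, 14 had an unadjusted p under 0.05 (2654 of 12239 tested genes), and the let-7Tg libraries lay below the WT libraries in 7 (11.5% of tested genes). Cdc6 (adjusted p = 0.055) and Mcm10 (adjusted p = 0.0541) fell just short. Same-numbered WT and let-7Tg libraries deviated together at 12 h, and with the replicate number as a block 3 members were called, Rrm2, Cdc6 and Mcm10. Rrm2 lost its call without WT replicate 1, WT replicate 3 or let-7Tg replicate 2, and 2 members were called without let-7Tg replicate 3. Rrm2 and 7 other members (Pcna, Mcm2, Cdc45, Pole, Cdc6, Mcm10 and Pold3) also stand in gene lists that the study drew up from these samples, so their directions are not independent of those lists.

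At 12 h the 8 myeloid genes summed to 4.88 to 9.97 FPKM in WT, 6.94 to 13.1 in lin28Tg and 5.64 to 8.82 in let-7Tg libraries, with 2 of 5 tested genes higher in lin28Tg than in WT and 3 of 5 higher than in let-7Tg. The 8 erythroid genes summed to 296 to 403, 449 to 869 and 248 to 275 FPKM, with 1 of 5 higher in lin28Tg than in WT and 3 of 5 higher than in let-7Tg. Of these 8 genes, 5 in WT, 4 in lin28Tg and 6 in let-7Tg had a group mean under 1 FPKM. The sums thus rest on few genes and do not by themselves show erythroid cells. The 10 CD8 T cell genes summed to 3143 to 3293, 2470 to 2867 and 2641 to 3354 FPKM, with 3 lower and 1 higher in lin28Tg than in WT and 5 lower and 1 higher than in let-7Tg. At day 5 the 2 NK genes summed to 8.35 to 40.6 FPKM in WT, 60.8 to 158 in lin28Tg and 2.15 to 4.63 in let-7Tg libraries. The 1 tested was higher in lin28Tg than in either other genotype. Of 3 myeloid genes tested, 1 was higher in lin28Tg than in WT and 3 than in let-7Tg. Against let-7Tg, 4 of 10 CD8 T cell genes were lower and 1 higher. Lower too were 1 of 2 B cell, 1 of 3 erythroid, 1 of 1 thymocyte and 1 of 2 stroma genes tested. The part of other cells in the differences at any of the 3 stages was not tested.

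At day 5, 0 of 43 members were called between lin28Tg and WT by limma, with 2.03% of 13030 tested genes higher and 2.31% lower. An unadjusted p under 0.05 was found for 9 members and for 2549 of the 13030 tested genes. The median log2 difference was -0.03, and the 95% interval lay within 0.5 of 0 in 38 of 43 members, with all intervals together spanning -0.60 to 0.58. Same-numbered libraries deviated together at day 5, and with the replicate number as a block 2 members were called, Rrm2 and Orc6. Between let-7Tg and WT, 0 members were called, against 0.929% of tested genes, and 2 had an unadjusted p under 0.05 (1639 of 13030 tested genes). The median was -0.02 and 40 intervals lay within 0.5 of 0. Leaving out WT replicate 3 gave 1 call there.

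Between lin28Tg and let-7Tg at day 5, 3 members were higher (Orc1, Gins1 and Tk1) and 3 lower (Mcm6, Prim1 and Tyms), where 10.8% of tested genes were higher and 10.7% lower. Gins1 was at 41.8, 43.1 and 39.2 FPKM in WT, 50.5, 44.1 and 42.2 in lin28Tg and 38.1, 32.9 and 34.6 in let-7Tg cells (log2 difference 0.48, SE 0.09, adjusted p = 0.00571 for lin28Tg against let-7Tg). Prim1 was at 60.1, 59.6 and 49.8 FPKM in WT, 45.1, 43.4 and 46.4 in lin28Tg and 63.5, 61.1 and 59.5 in let-7Tg cells (log2 difference -0.34, SE 0.08, adjusted p = 0.0175), with lin28Tg libraries below all others. Mcm6 was at 206, 204 and 211 FPKM in WT, 182, 177 and 169.7 in lin28Tg and 230.5, 220.5 and 227 in let-7Tg cells (log2 difference -0.25, SE 0.06, adjusted p = 0.0228). Tk1 was at 119, 116 and 93.5 FPKM in WT, 117, 133 and 129 in lin28Tg and 101, 103 and 108 in let-7Tg cells (log2 difference 0.39, SE 0.10, adjusted p = 0.0232). Orc1 was at 14.8, 15.8 and 16.9 FPKM in WT, 18.5, 20.4 and 18.2 in lin28Tg and 14.2, 15.1 and 16.9 in let-7Tg cells (log2 difference 0.41, SE 0.12, adjusted p = 0.0365), and Tyms at 30.5, 34.5 and 36.9 FPKM in WT, 29.5, 32.1 and 28.1 in lin28Tg and 39, 44.5 and 43.3 in let-7Tg cells (log2 difference -0.38, SE 0.11, adjusted p = 0.0375). All 6 differences were under 0.5 on the log2 scale. They depended on single libraries: 3 members were called without lin28Tg replicate 2, 2 without lin28Tg replicate 3, and 1 without let-7Tg replicate 1 or 2. With the replicate number as a block, which pairs the libraries at day 5, the split was 6 higher and 3 lower, and without scaling between libraries it was 1 higher and 7 lower.

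The genes with the smallest adjusted p at 12 h stood closer together at day 5 than at 12 h. Rrm2 was at 250.4, 279 and 248 FPKM in WT, 310.1, 338 and 272 in lin28Tg and 299, 303 and 262 in let-7Tg cells. Its mean was 259 FPKM in WT and 307 in lin28Tg, a difference called with the replicate number as a block. Cdc6 was at 21.2, 18.6 and 21.1 FPKM in WT, 19.2, 19.7 and 18.4 in lin28Tg and 22.4, 20.3 and 22.2 in let-7Tg cells. Mcm10 was at 42.7, 45.5 and 44.6 FPKM in WT, 39.4, 41 and 36.9 in lin28Tg and 42.3, 43.5 and 44.4 in let-7Tg cells. For Cdc6 the 95% interval of lin28Tg against WT was -0.26 to 0.19, and for Mcm10 it was -0.31 to 0.06. The lin28Tg libraries of Mcm10 lay below those of both other genotypes, without a call. Cdc45 was at 54.5, 55.7 and 47.3 FPKM in WT, 48.3, 49.7 and 46.6 in lin28Tg and 53.1, 52.3 and 53.2 in let-7Tg cells, with overlapping WT and lin28Tg libraries.

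Among the other licensing and helicase genes at day 5, Cdt1 was at 68.9, 54 and 48.5 FPKM in WT, 51.8, 41.3 and 45.3 in lin28Tg and 55.7, 50.04 and 52.7 in let-7Tg cells. Mcm2 was at 88.8, 83 and 95.4 FPKM in WT, 86.2, 91.8 and 94.1 in lin28Tg and 77.6, 80.6 and 99.5 in let-7Tg cells. Mcm5 was at 107, 94.8 and 95.6 FPKM in WT, 88.8, 85.3 and 79.5 in lin28Tg and 101, 104 and 111 in let-7Tg cells. The lin28Tg libraries of Mcm5 were below those of both other genotypes, without a call (adjusted p = 0.0981 against let-7Tg). For the polymerases, Pola1 was at 41, 49.6 and 43 FPKM in WT, 43.3, 40.1 and 35.4 in lin28Tg and 44.2, 49 and 44.8 in let-7Tg cells. Pole was at 61.5, 68.5 and 60.8 FPKM in WT, 55.4, 53.3 and 51.7 in lin28Tg and 63.1, 64.5 and 62.7 in let-7Tg cells. The lin28Tg libraries of Pole were again below the others, without a call (adjusted p = 0.178 against WT). The clamp Pcna was at 498, 524 and 579.5 FPKM in WT, 475, 505 and 499.7 in lin28Tg and 515, 585 and 657 in let-7Tg cells. Its loader subunit Rfc1 was at 57.9, 60.1 and 54.9 FPKM in WT, 50.7, 49.4 and 44.8 in lin28Tg and 57.7, 60.8 and 58.2 in let-7Tg cells. Every lin28Tg value of Rfc1 was below every value of the other genotypes (adjusted p = 0.177 against WT). Rpa1 was at 136, 141 and 139 FPKM in WT, 166, 142 and 139.7 in lin28Tg and 143, 150.03 and 154 in let-7Tg cells. Lig1 was at 144, 138 and 99.5 FPKM in WT, 119, 113 and 109.6 in lin28Tg and 116, 114 and 104 in let-7Tg cells. The WT and lin28Tg libraries overlapped in both. Fen1, from few reads, was at 0.714, 1.06 and 1.26 FPKM in WT, 0.834, 0.995 and 1.005 in lin28Tg and 0.843, 1.5 and 1.15 in let-7Tg cells. Chaf1a was at 33.6, 30.6 and 26.9 FPKM in WT, 29.6, 29.4 and 26.4 in lin28Tg and 33, 32.7 and 32.2 in let-7Tg cells, with overlapping WT and lin28Tg libraries.

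**Figure D3:**
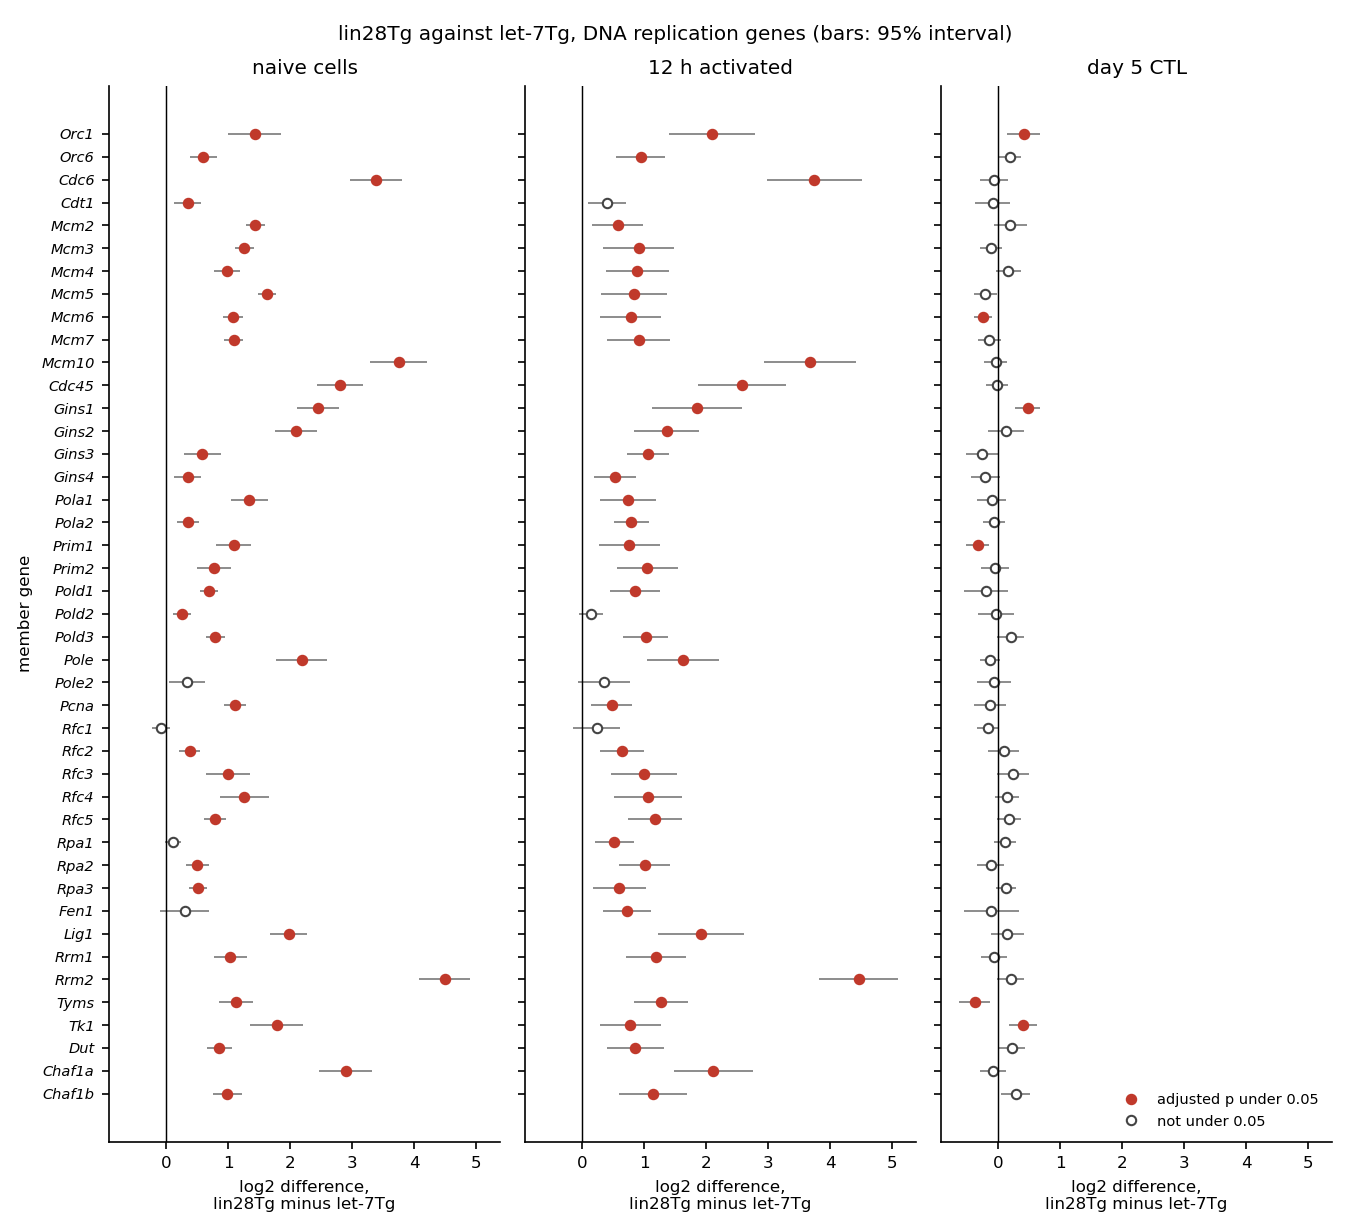
Log2 difference of lin28Tg from let-7Tg cells (horizontal axis, with 95% interval) for each of the 43 members (vertical axis, by role) in naive, 12 h and day 5 cells. In naive and 12 h cells 39 members each lie to the right of 0 with a call, and at day 5 there are 3 calls on either side.

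Nearly all replication genes were higher at 12 h than in naive cells in each genotype. In WT, 40 of 43 members rose and 1, Rpa1, fell (limma over all 27 libraries), with a median log2 change of 1.83, where 35.7% of 14453 tested genes rose and 35.3% fell. In lin28Tg 38 rose and 0 fell, with a median of 1.4 (34.9% rose and 38.6% fell), and in let-7Tg 38 rose and 1, again Rpa1, fell, with a median of 1.36 (34.4% rose and 35.0% fell). Pold2, a polymerase delta subunit, had the smallest adjusted p in each, rising from 67.6, 68.3 and 67.2 to 214, 191 and 206 FPKM in WT (log2 difference 1.83, SE 0.10, adjusted p = 5.15e-13). Gins2 rose in WT from 0.713, 0.928 and 0.629 to 9.29, 5.92 and 10.6 FPKM (log2 difference 3.03, SE 0.19, adjusted p = 3.27e-12). Mcm5 rose by 2.95 in WT, 1.93 in lin28Tg and 2.73 in let-7Tg on the log2 scale, and Mcm2 by 2.43, 1.57 and 2.43. In lin28Tg, Pold2 rose from 72.2, 80.01 and 78.4 to 209, 229 and 215 FPKM, and Orc6, the smallest origin recognition subunit, from 11.6, 11.4 and 12.6 to 31.2, 40.6 and 37.5 FPKM (log2 change 1.81). In let-7Tg, Pold2 rose from 62.6, 69.1 and 61.4 to 188, 193 and 213 FPKM and Gins2 from 0.604, 0.666 and 0.473 to 4.87, 5.06 and 7.23 FPKM. Rpa1 went against the rest, with log2 changes of -0.28 in WT (adjusted p = 0.028) and -0.41 in let-7Tg (adjusted p = 0.00211), and it had no call in lin28Tg (-0.02, adjusted p = 0.884). The WT call of Rpa1 was lost without WT naive replicate 1, WT naive replicate 2 or WT 12 h replicate 2 (adjusted p up to 0.226) and without the filter on low reads, while the let-7Tg call was not lost under any alternative. Without scaling between libraries the median change of all genes shifted from -0.03 to -0.18 in WT, from -0.06 to -0.24 in lin28Tg and from -0.04 to -0.18 in let-7Tg.

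From 12 h to day 5 the counts differed by genotype. In WT 27 members rose and 2, Mcm2 and Pold2, fell, with a median of 0.44 (33.1% of tested genes rose and 34.4% fell). In let-7Tg 38 rose and the same 2 fell, with a median of 0.94 (34.0% rose and 33.1% fell). In lin28Tg 12 rose and 9 fell, with a median of -0.05 (32.8% rose and 33.5% fell). Both lin28Tg counts were below these shares of tested genes. The 9 that fell in lin28Tg were licensing genes (Orc1, Orc6), helicase genes (Mcm2, Mcm3, Mcm5, Mcm6) and polymerase genes (Pola2, Pold1, Pold2). Of these 9, Mcm2, Mcm3, Mcm5, Pold1 and Pold2 had a call under each alternative tried. Orc1, Orc6, Mcm6 and Pola2 did not: 5 members fell without lin28Tg 12 h replicate 2, 12 h replicate 3 or day 5 replicate 3, and 6 without day 5 replicate 1 or 2, with adjusted p up to 0.0954 for Orc1, 0.185 for Orc6, 0.101 for Mcm6 and 0.151 for Pola2. The fall of Mcm2 in let-7Tg was not called without let-7Tg 12 h replicate 3 or day 5 replicate 1, nor from only the 6 libraries compared (adjusted p up to 0.156). The 12 that rose held all 5 nucleotide supply genes, with Gins3, Pola1, Rfc5, Rpa1, Rpa3, Lig1 and Chaf1b.

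All 5 nucleotide supply genes rose from 12 h to day 5 in each genotype. Rrm2 rose by 4.48 on the log2 scale in WT (adjusted p = 1.49e-13), 2.04 in lin28Tg (adjusted p = 5.55e-08) and 6.34 in let-7Tg (adjusted p = 3.52e-16). Tk1 rose by 2.94, 2.55 and 2.96, and Tyms by 1.94, 0.94 and 2.61. Tk1 was the 1 gene of these 5 whose rise was not called different between lin28Tg and let-7Tg (difference -0.41, 95% interval -0.97 to 0.15). Gins3 rose by 1.92 in let-7Tg, from 2.2, 2.61 and 2.75 to 12, 11.8 and 11.9 FPKM. Rpa1 rose at this step by 1.25 in WT, 1.03 in lin28Tg and 1.45 in let-7Tg.

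None of the 6 helicase genes rose late in lin28Tg, and 4 fell. Mcm5 fell by 0.99 (adjusted p = 2.76e-05), Mcm3 fell by 0.76 (adjusted p = 0.000836) and Mcm6 fell by 0.40 (adjusted p = 0.0345). Mcm2 fell in all 3 genotypes, with log2 changes of -0.66 in WT, -0.84 in lin28Tg and -0.44 in let-7Tg, and so did Pold2, with -0.73, -0.94 and -0.73. In lin28Tg, Mcm3 went from 305, 366 and 359 to 217, 208 and 204 FPKM, and Mcm6 was at 201, 235 and 232 FPKM at 12 h. Pold2 went from the 12 h values above to 113, 118 and 124 FPKM in lin28Tg, 145, 122 and 143 in WT and 117, 124 and 154 in let-7Tg. Of the other polymerase genes in lin28Tg, Pola2 fell by 0.27 on the log2 scale, from 38.2, 47.5 and 43.5 to 38.6, 36.5 and 36.4 FPKM. Pold1 fell by 0.79, from 226, 259 and 247 to 164, 141 and 137 FPKM. In licensing, Orc1 fell in lin28Tg by 0.65 (adjusted p = 0.0234) and Orc6 fell by 0.32 (adjusted p = 0.042), to 29.9, 31.1 and 29.6 FPKM, while Orc1 rose in let-7Tg by 1.06.

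The difference between lin28Tg and let-7Tg in these changes was tested directly. From naive to 12 h, the log2 change of 4 members was lower in lin28Tg and that of 0 was higher, with 8.24% of tested genes lower and 5.06% higher, and the median difference was 0.02. They were Mcm2 (log2 difference -0.87, SE 0.21, adjusted p = 0.00841), Tk1 (log2 difference -1.01, SE 0.27, adjusted p = 0.015), Pcna (log2 difference -0.64, SE 0.19, adjusted p = 0.0246) and Mcm5 (log2 difference -0.80, SE 0.24, adjusted p = 0.0303). Mcm2, Pcna and Mcm5 rose in both genotypes, and less in lin28Tg. Without scaling, the mean FPKM of Tk1 at 12 h was 0.72 times the naive mean in lin28Tg and 1.6 times in let-7Tg. The scaled limma fit gave no call for the change of Tk1 in lin28Tg (-0.20, adjusted p = 0.343). The count of lower changes was 2 without lin28Tg naive replicate 2 and 8 without let-7Tg 12 h replicate 2. It was 2, with 3 higher, without lin28Tg 12 h replicate 1 or let-7Tg 12 h replicate 3, and without scaling it was 4, with 1 higher, Pola2. From 12 h to day 5, the log2 change of 34 members was lower in lin28Tg and that of 0 was higher, with all 43 differences negative and a median of -1.03, where 12.0% of tested genes were called in this direction and 8.16% in the other. In some members, such as Rrm2, the lower change was a smaller rise, and in others, such as Mcm5, it was a fall in lin28Tg. In FPKM without scaling between libraries, the day 5 mean of Mcm5 was 0.52 times the 12 h mean in lin28Tg and 1.12 times in let-7Tg. The smallest adjusted p were those of Rrm2 (log2 difference -4.3, SE 0.32, adjusted p = 7.55e-09), Cdc6 (log2 difference -3.86, SE 0.36, adjusted p = 1.07e-07), Mcm10 (log2 difference -3.75, SE 0.36, adjusted p = 1.67e-07) and Cdc45 (log2 difference -2.63, SE 0.34, adjusted p = 6.15e-06). The members not called were Cdt1, Mcm2, Pold2, Pole2, Rfc1, Rfc3, Rpa1, Rpa3 and Tk1. The 12 h libraries enter both tests with opposite signs, so the tests are not independent.

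Neighbouring gene groups of the cell cycle were counted in the same fits. Among 47 further replication genes outside the 43, 24 were higher and 4 lower in naive lin28Tg than in WT (median 0.32), 11 and 0 at 12 h, and 0 and 0 at day 5 (limma, with 6 at an unadjusted p under 0.05). Uhrf1, which takes part in the copying of DNA methylation at the fork, led in naive cells (log2 difference 2.34, SE 0.12, adjusted p = 9.03e-06), with Gmnn, the inhibitor of Cdt1 (log2 difference 1.72, SE 0.09, adjusted p = 9.03e-06). Against let-7Tg the leading genes were Uhrf1 and the histone chaperone Asf1b (log2 differences 3.04 and 2.61), and Uhrf1 was lower in naive let-7Tg than in WT (-0.70, adjusted p = 0.0369). At 12 h Clspn, a checkpoint mediator at the fork, and the nuclease Dna2 led in lin28Tg against WT (2.5 and 1.41), and Clspn and the origin firing factor Ticrr against let-7Tg (4.06 and 2.04). In let-7Tg against WT, Clspn was lower (-1.56, adjusted p = 0.0373) and Pold4 higher (0.43, adjusted p = 0.0455). At day 5, Mtbp was higher and Samhd1, which breaks down nucleotides, lower in lin28Tg than in let-7Tg (0.50 and -0.72).

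By stage, the histone chaperone Ssrp1 led this further list at 12 h in each genotype, with log2 changes of 1.56 in WT, 1.32 in lin28Tg and 1.54 in let-7Tg, followed by Tipin in WT (2.81), Mtbp in lin28Tg (1.66) and Umps in let-7Tg (2.82). From 12 h to day 5, Clspn and the nucleoside kinase Dck led in WT (4.3 and 2.26) and in let-7Tg (6.22 and 3.18), and Umps and Pole4 in lin28Tg (-1.79 and -1.08). In the test of lin28Tg against let-7Tg, Clspn and Dck led from naive to 12 h (1.36 and 0.92) and Clspn and Ticrr from 12 h to day 5 (-4.49 and -2.24).

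Mitosis genes were also higher in naive and 12 h lin28Tg cells. Of 30 mitosis genes, 29 were higher and 1 lower in naive lin28Tg than in WT (median 2.54), 27 and 0 at 12 h (median 1.86), and 0 and 0 at day 5 (limma, with 1 at an unadjusted p under 0.05). From naive to 12 h in WT 20 of them rose and 2 fell, with a median of 0.92 against 1.83 for the replication genes, and from 12 h to day 5 all 30 rose in every genotype, with medians of 4.66 in WT, 2.67 in lin28Tg and 5.88 in let-7Tg. In let-7Tg against WT at 12 h, 5 mitosis genes were lower and 0 higher (median -0.69). The late change was smaller in lin28Tg than in let-7Tg in 29 of 30 (median -2.83). Of 24 regulators of the step from G1 to S, 13 were higher and 1 lower in naive lin28Tg, 12 and 0 at 12 h, and 1 and 0 at day 5. The difference between these lists and the 43 members was not tested.

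**Figure D4:**
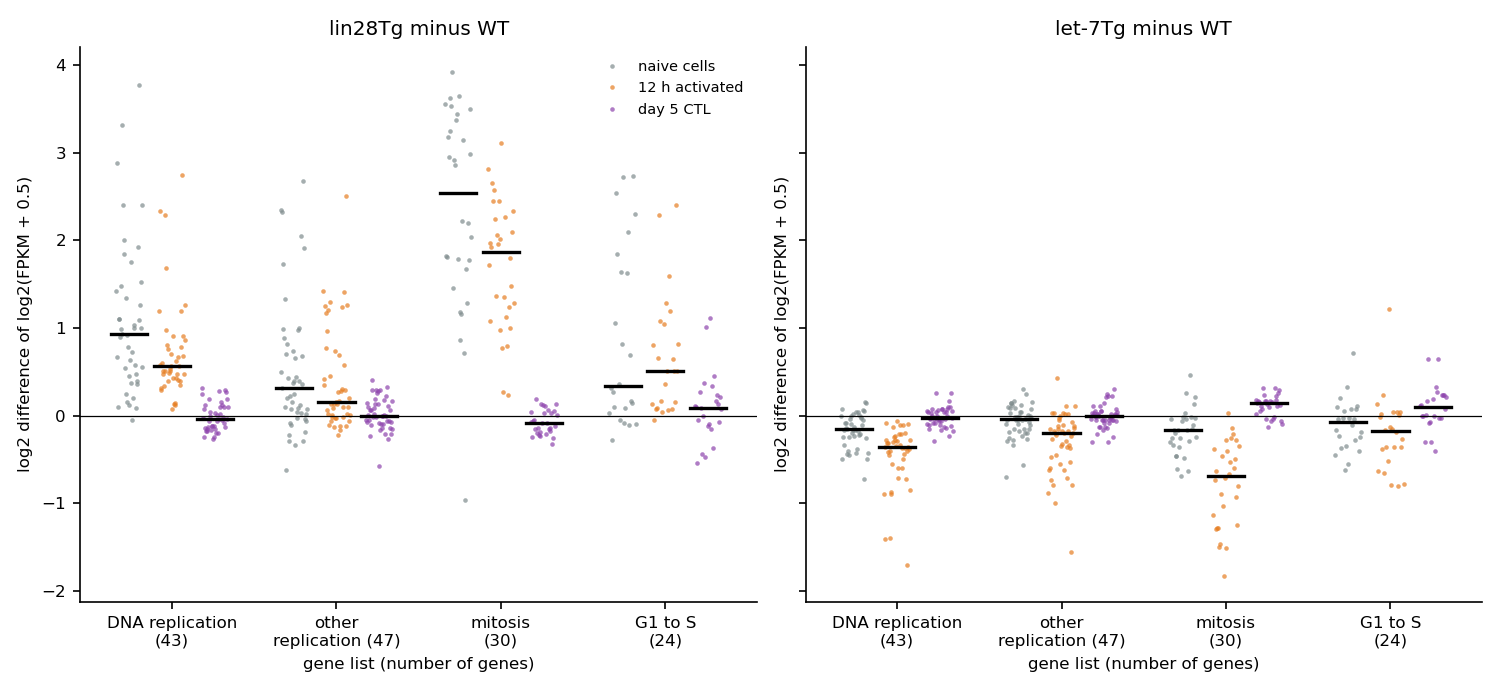
Log2 difference of lin28Tg and of let-7Tg from WT at each stage for the 43 members, the 47 further replication genes, the 30 mitosis genes and the 24 regulators of the step from G1 to S, with a point for each gene and a bar at the median. The member medians for lin28Tg go from 0.93 in naive cells to 0.56 at 12 h and -0.03 at day 5, and those of let-7Tg from -0.16 to -0.36 and -0.02.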

How the data were processed

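RNA was extracted from TRIzol lysates and sequenced by a company. Per the submitters' processing notes, TopHat2 2.0.9 with Bowtie2 2.0.6 (GRCm38, mm10), HTSeq 0.6.1 and DESeq2 were used; the annotation release and the strand setting of the counting are not given in the sources used here. The authors deposited FPKM values per gene and library in 3 tables, 1 for each stage, and every value used here is one of those FPKM values. The tables also hold the authors' group means of normalized counts, fold changes, p-values, ranks and heatmap clusters, which were not used. All 462839 values above 0 corresponded to whole reads (tolerance 0.001), and library totals of 13862706 to 23591069 reads followed from them.

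Genes with at least 10 reads in at least 3 libraries and a sum of at least 15 were kept. Values were scaled by a trimmed mean of log ratios (30% of ratios and 5% of levels trimmed from each end), and log2(FPKM + 0.5) was fitted with limma 3.58.1 (trend) in R 4.3.3. A log2 difference on this scale understates the change of low genes. Genotypes were compared within the 9 libraries of a stage, stages and their differences between genotypes over all 27. A call is a Benjamini-Hochberg adjusted p under 0.05 over all tested genes, two-sided, and intervals are 95% intervals of the same fit. p-values measure the spread between the 3 libraries of a group, which the study names biological replicates; replicates of a group differed by more than read sampling, with a mean chi-square per gene of 4.40 to 58.1. Same-numbered libraries of different genotypes deviated together at day 5 (correlations 0.245 to 0.715) and, for WT and let-7Tg, at 12 h (0.240 to 0.549). No label gives a shared day or litter. The reported calls come from fits without this pairing, and a fit with the replicate number as a block was run as an alternative. Other tools were Python 3.11.15, numpy 2.4.6, pandas 2.3.3, scipy 1.17.1 and matplotlib 3.10.9. The fits were tested on simulated data.

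The members and lists were chosen with earlier results of these data known. Values per library are given for 20 members that represent the 9 roles, for the 4 members with the smallest adjusted p in each comparison and for members called against the majority; of the 47 further replication genes, the 2 with the smallest adjusted p are named; mitosis and G1 to S genes are counted only; and the 5 other genes most like Mcm5 are named. Alternatives were a replicate block, a pseudocount of 0.1, no filter, no scaling, median of ratios scaling, a fit of only the 6 libraries compared, and leaving out each library.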

Additional observations from a re-analysis of the deposited data

Results flagged for a closer look

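The change between stages was compared between lin28Tg and let-7Tg cells by a test of the difference itself. From naive to 12 h, the log2 change of 4 of 43 members was lower in lin28Tg and that of 0 was higher. This is near the share of all tested genes, of which 8.24% were lower and 5.06% higher. The median difference of the members was 0.02. The 4 log2 differences were -0.87 for Mcm2, -1.01 for Tk1, -0.64 for Pcna and -0.80 for Mcm5. From 12 h to day 5, the log2 change of 34 members was lower in lin28Tg, where 12.0% of tested genes were lower and 8.16% higher. The smallest adjusted p were those of Rrm2 (-4.3), Cdc6 (-3.86), Mcm10 (-3.75) and Cdc45 (-2.63).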

How the results depend on the processing

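The number of members called in lin28Tg against WT at 12 h, 10 as reported, was 19 with a replicate block, 5 without a filter, 21 from only the 6 libraries compared, and 3 to 9 when 1 library was left out. In let-7Tg against WT at 12 h, 1 as reported, it was 3 with the replicate block, 2 with a pseudocount of 0.1, 2 without scaling, 0 without a filter, 0 from only the 6 libraries compared and 0 to 2 when 1 library was left out. In lin28Tg against WT at day 5 it was 2 with the block against 0. The test of naive to 12 h between lin28Tg and let-7Tg gave 2 without a filter against 4, and 2 to 8 when 1 library was left out. Leaving out 1 library gave 0 to 2 for let-7Tg against WT in naive cells, 24 to 39 for lin28Tg against let-7Tg at 12 h, 0 to 1 for let-7Tg against WT at day 5 and 1 to 4 for lin28Tg against let-7Tg at day 5. Every other total stayed within 1.5 times its reported value. Counts in 1 direction moved by more in some of these. With the block, lin28Tg against let-7Tg at day 5 had 6 higher against 3, and the test of naive to 12 h had 1 higher against 0. The 9 that fell in lin28Tg from 12 h to day 5 were 5 to 10 when 1 library was left out, the 1 that fell in WT from naive to 12 h was 0 without a filter and 0 to 1 when 1 library was left out, and the 1 that fell in let-7Tg was 2 without scaling, 2 with median of ratios scaling and 1 to 2 when 1 library was left out. In lin28Tg 1 fell from naive to 12 h without scaling, against 0. The 2 that fell in let-7Tg from 12 h to day 5 were 1 from only the 6 libraries compared and 1 to 2 when 1 library was left out. The block moved no other count by over 1.5 times. The cause of these shifts was not tested. Same-numbered libraries in naive cells (correlations -0.257 to 0.475) and lin28Tg libraries at 12 h (-0.257 to 0.0721) share only a number.

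Of 201 differences of named genes that were called, 201 kept their call with the block, 201 with the smaller pseudocount, 200 with median of ratios scaling, 193 without scaling and 182 without a filter, as did 177 of 182 from only the 6 libraries compared. Over 1320 values with 1 library left out, 1192 kept their call, and 0 reversed under any of these alternatives. Depth limited Fen1, with 3 to 76 reads, and Mcm10 in naive cells, with as few as 2.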

Other observations

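Outside the 43 members, the genes whose log2 level over the 9 group means was most like that of Mcm5 were Pidd1 (Pearson r 0.992), Ppfibp1 (0.989), Jpt2 (0.989), Fabp5, a fatty acid binding protein (0.989), and Gm49339 (0.988). Among the members Mcm3 (0.994), Mcm2 (0.985) and Pold1 (0.980) were most like it. These correlations describe 9 means that share libraries and stages and were picked as the highest of all tested genes.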
